A study of Mus musculus with 42 samples.

Results

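Neurons of the nodose ganglion (NG) and of the dorsal root ganglion (DRG) of the inbred BALB/c mouse strain were collected by laser capture microdissection and compared on Affymetrix MG-U74Av2 arrays. The comparison was chosen by sample titles that name this experiment and took 10 of the 42 samples of the series, 5 from NG and 5 from DRG. Each sample held about 150 captured neurons, from which amplified RNA was labelled, about 12 µg per array. Housing was standard for both groups, and neither group's labels name a treatment, transgene, disease, age or sex; how the neurons were recognised as visceral is not stated in the labels. The other samples of the series were 12 whole ganglia on the same array type and 20 samples of captured neurons on Mouse430_2 arrays. The labels do not say whether each sample was a different animal, and p-values therefore describe the spread among samples, technical spread included.

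The NG lies on the vagus nerve and holds the cell bodies of afferents from the heart, lungs and gut, and its neurons arise mostly from an epibranchial placode. The DRG lies beside the spinal cord and holds the cell bodies of afferents from skin, muscle and viscera, and its neurons arise from the neural crest. Both kinds of neuron carry a signal from a peripheral ending to the brainstem or spinal cord and use glutamate, often together with peptides.

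Levels given as a mean ± SD are over the 5 arrays of a group. Signals are otherwise given for single arrays in the order of their sample numbers, 003, 007, 008, 010 and 014 in NG and 003, 006, 008, 010 and 014 in DRG. They are the deposited MAS5 signals after scaling that gives every array one 2% trimmed mean, the mean left after the lowest and highest 2% of probe sets are cut off. The deposited trimmed means ran from 187.7 to 274.5. Differences are NG minus DRG in log2(signal + 10.4), where 10.4 is the 20th percentile of all values, and folds on this scale understate the difference of dim genes. A gene is called higher where the adjusted p of the limma fit, with Benjamini-Hochberg adjustment over all probe sets, lay under 0.05.

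The captured samples were first set against whole ganglia for markers of neurons and of other cells. The summed signal of 14 neuron markers had a median over arrays of 51460 in captured and 49290 in whole NG, and of 46410 and 43780 in DRG, with all 4 groups scaled together. Of those markers 7 were higher in whole and 6 in captured NG, and 6 in whole and 5 in captured DRG, where 56.3% and 48.3% of all genes were called in either direction. The medians of the lists of other cells were all lower after capture; for glia the captured arrays ran from 13380 to 14410 in NG and 15530 to 18040 in DRG, and the whole ganglia from 19540 to 24060 and 19100 to 22920. Of 15 tested genes of connective tissue and meninges, 13 were higher in whole NG than in captured NG neurons and 11 in whole than in captured DRG, against 30.3% and 25.4% of all genes. The myelin gene Mbp had signals of 334 ± 45.9 in captured and 1864 ± 285 in whole NG, and 386 ± 135 and 2266 ± 399 in DRG (SD, n = 5 captured each, 7 whole NG and 5 whole DRG). The collagen gene Col3a1 had 45.5 ± 15.9 in captured and 427 ± 95.4 in whole NG, and 61.2 ± 20.9 and 444 ± 123 in DRG. Both genes were far lower on the captured arrays of either ganglion. So was Syp, among the 7 and 6 neuron markers higher in whole ganglia. It had 27 ± 6.6 in captured and 215 ± 46.9 in whole NG, and 33.1 ± 8.81 and 202 ± 15.6 in DRG. The held sum of the neuron list therefore does not stand for each of its members. Of 17 tested glial genes, 10 were higher in whole NG and 8 in whole DRG, against the same 30.3% and 25.4%. By contrast, 1 glial gene was higher in captured NG and 3 in captured DRG, Glul in both (log2 captured minus whole 0.53 and 0.52). Of 16 tested vessel genes, 9 were higher in whole NG and 1, Kdr, in captured NG (1.08). These levels cannot be separated from the preparation and RNA amplification that go with capture.

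Signal of other cells was still present in the captured samples. The summed signal of 19 glial markers (satellite and Schwann cells, which wrap neurons and axons) ran from 12640 to 13620 on the NG arrays and from 14670 to 17040 on the DRG arrays, and 11 of the 19 had the higher mean in DRG. The glial sum was not read without its brightest differing genes. With all 4 groups scaled together, S100b had means of 488 in captured NG and 1506 in captured DRG. Gja1 had 225 and 1035, and Fabp7 had 1221 and 1909, while 8 of the 19 genes had the higher mean in NG. The sums of the other lists moved when their brightest differing genes were left out. For 16 genes of connective tissue and meninges the ranges were 5758 to 7258 in NG and 9317 to 13930 in DRG, but 1746 to 2567 and 1694 to 2175 without Dcn and Thy1, the latter also made by sensory neurons. For 23 macrophage and lymphocyte genes they were 1467 to 1875 in NG and 1036 to 1312 in DRG, and 1160 to 1393 and 980.3 to 1227 without H2-Aa. The sums of 19 endothelial and mural genes were 2377 to 3159 in NG and 1780 to 2492 in DRG, and without Mcam, Abcb1a and Kdr the order was turned, with 659.1 to 1104 and 1135 to 1449. Of those 19 genes, 14 had the higher mean in DRG. For 13 genes of blood and muscle the sums were 773.6 to 1172 and 588.7 to 743.8, and 551.7 to 1029 and 542.2 to 691.9 without Myl1. The genes left out of these sums were chosen after their values were seen, so the direction of each shift was fixed beforehand. The part of these other cells in the differences below was not tested. In such pooled samples, fewer cells of a type and less RNA per cell cannot be told apart.

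**Figure D1:**
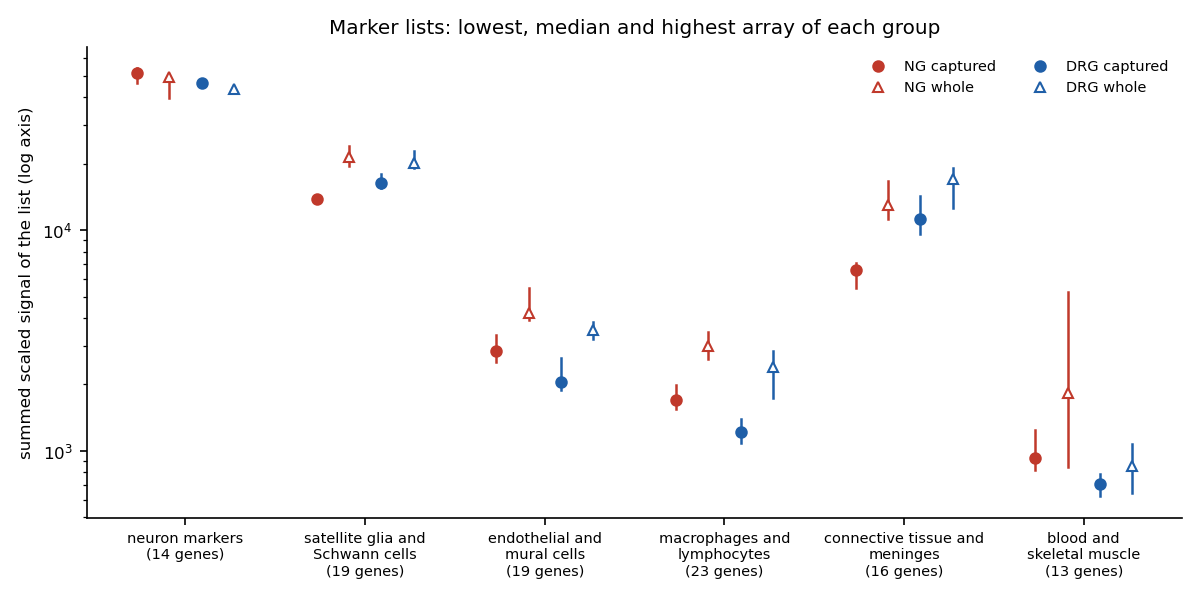
Summed scaled signal of each marker list on a log axis in captured neurons (circles) and whole ganglia (triangles), all 4 groups scaled together, with symbols at the median array and lines from the lowest to the highest array. The lists of glia, vessels, immune cells and connective tissue have lower medians after capture in both ganglia, and the neuron list does not.

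The question of the comparison was which genes differ between captured NG and DRG neurons. Of 5784 genes tested, 1323 (22.9%) were called, 634 higher in NG (11.0%) and 689 higher in DRG (11.9%). Counts for gene lists below are to be read against these 11.0% and 11.9%, and several lists lay near them. At least 2-fold, NG exceeded DRG for 141 genes (2.44%) and DRG exceeded NG for 294 (5.08%). The arrays of the groups did not overlap for 982 of the tested genes (17.0%), called or not. Over all genes the median difference was 0.05. Among probe sets 1652 were called (21.8%), 792 towards NG (10.4%) and 860 towards DRG (11.3%). The NG share of these calls was 47.9%; it was 46.1% under quantile normalization, 50.7% with the same median on every array and 35.5% of 1089 calls with the deposited signals left unscaled. Correlations between arrays ran from 0.939 to 0.970 within NG, from 0.963 to 0.976 within DRG and from 0.891 to 0.921 between the ganglia. NG arrays 010 and 014 lay away from NG arrays 003, 007 and 008 along the second principal component, which held 12.5% of the variance of the 10 arrays, at -23.3 and -26.0 against 11.0 to 18.0. Without both, 1858 probe sets were called, 1348 of them among the 1652.

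**Figure D2:**
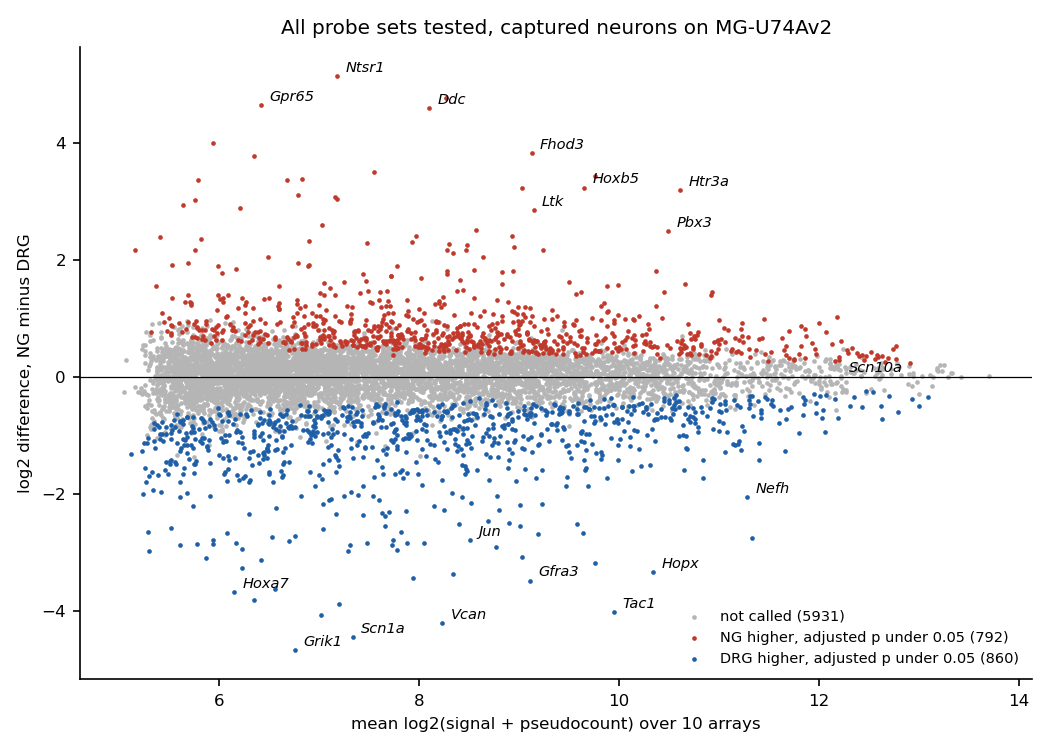
Log2 difference (NG minus DRG) against the mean log2 signal of all 7583 probe sets tested, with 792 called higher in NG (red) and 860 called higher in DRG (blue). Differences of 4 or more on the log2 scale occur on both sides, and Scn10a lies near 0 at high signal.

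G protein-coupled receptors were among the genes with the largest differences towards NG. Ntsr1, the neurotensin receptor, had signals of 635, 1126, 1136, 592 and 933 in NG and 14.4, 11.8, 12.9, 13.1 and 17.8 in DRG (35.5-fold, log2 difference 5.15, SE 0.20, adjusted p = 3.18e-10). Gpr65, a receptor that senses protons, had 316, 414, 283, 463 and 726 in NG and 5.68, 3.96, 11.2, 5.94 and 7.1 in DRG (25.1-fold, log2 difference 4.65, SE 0.24, adjusted p = 6.4e-09). The lowest NG array exceeded the highest DRG array many times over for both genes. Crhr2, a receptor for urocortins, read 275, 188, 284, 313 and 243 in NG and 48.2, 75.7, 61.5, 19.98 and 28.6 in DRG (log2 difference 2.33, SE 0.26, adjusted p = 1.92e-05). Avpr1a, the vasopressin receptor, read 261, 34.7, 47.5, 142 and 169 in NG and 17.8, 16.2, 20.4, 12.4 and 10.01 in DRG (log2 difference 2.16, SE 0.41, adjusted p = 0.00177), and the NG arrays spread widely while all lay above every DRG array.

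Some further receptors also lay on the NG side, and others, given next, lay on the DRG side. Ptger4, a prostaglandin E2 receptor, had signals of 1534, 1806, 1194, 2242 and 2163 in NG and 484, 644, 647, 639.6 and 511 in DRG (1.57, SE 0.17). Cckar, through which cholecystokinin from the gut acts on vagal afferents, had 1236, 1105, 1642, 1311 and 1233 in NG and 250.3, 377, 605, 696 and 546 in DRG (1.45, SE 0.23). Drd2, a dopamine receptor, was dimmer, with 141 ± 34.4 in NG and 71.7 ± 30.9 in DRG (0.93, SE 0.24). The NG arrays of Ptger4 and Cckar lay above all DRG arrays, while those of Drd2 overlapped. These 3 fell outside the naming rule and were chosen after their values were seen. Drd2 was not called with the Gapdh ratio as a covariate.

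DRG neurons held more signal for another set of receptors. Npy2r, a receptor of neuropeptide Y and peptide YY, had 544, 189, 342, 279 and 287 in NG and 1631, 2666, 2130, 1260 and 1752 in DRG (5.75-fold, log2 difference -2.52, SE 0.25, adjusted p = 5.33e-06). Ptgfr, the receptor of prostaglandin F2 alpha, had 33.5, 21.5, 16.6, 34.1 and 24.5 in NG and 163, 320.3, 155, 317 and 236 in DRG (log2 difference -2.73, SE 0.24, adjusted p = 1.6e-06). No NG array of these genes reached the lowest DRG array, although a second probe set of Ptgfr was not called (-0.29). Ptger1, a further prostaglandin E2 receptor, read 13.8 ± 7.94 in NG and 64.9 ± 11.8 in DRG (-1.68, SE 0.25), opposite in direction to Ptger4. S1pr1, a receptor of sphingosine 1-phosphate, was called towards DRG (-1.06, SE 0.30), but not without DRG array 014 (adjusted p = 0.0604) or without both NG arrays 010 and 014 (0.0665). Of 55 tested genes in the list of G protein-coupled receptors, 11 were higher in NG, 7 were higher in DRG and 37 were not called (median log2 difference 0.12). With the deposited signals left unscaled, or with the Gapdh ratio as a covariate, 7 were higher in NG.

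The windows before the start of transcription are shown for an NG-higher receptor, Gpr65 (chr12:98268385-98268634, plus strand), and a DRG-higher one, Npy2r (chr3:82548086-82548335, minus strand), to set side by side promoters of receptors called in opposite directions. They come from RefSeq (GRCm38.p6) and are written 5′ to 3′ on the gene's strand. In Gpr65 the capitals mark the letters of a TATA box, here TATAAA on the reverse strand, 175 bases before the start. In Npy2r they mark the letters of a GC box, GGGCGG, 62 bases before the start. Both are matches of letters only, and whether either works as a site was not tested.
Gpr65: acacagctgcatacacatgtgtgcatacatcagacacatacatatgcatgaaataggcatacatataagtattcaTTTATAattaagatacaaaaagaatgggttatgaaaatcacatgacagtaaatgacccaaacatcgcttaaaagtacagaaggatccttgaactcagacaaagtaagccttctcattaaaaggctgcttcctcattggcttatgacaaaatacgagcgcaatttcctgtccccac
Npy2r: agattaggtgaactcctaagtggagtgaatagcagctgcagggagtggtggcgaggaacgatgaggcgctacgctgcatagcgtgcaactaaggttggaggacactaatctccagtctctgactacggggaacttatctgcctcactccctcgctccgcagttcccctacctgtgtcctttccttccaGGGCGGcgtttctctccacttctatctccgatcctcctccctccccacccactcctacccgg

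Ionotropic receptors split by subunit. Htr3a, the core subunit of the serotonin-gated 5-HT3 channel of vagal afferents, had 3889, 4983, 4578, 5388 and 4888 in NG and 365, 613, 509, 449 and 651 in DRG (9.14-fold, log2 difference 3.19, SE 0.15, adjusted p = 3.46e-09). Grik1, a kainate receptor subunit, had 14.5, 3.3, 10.5, 6.37 and 26.8 in NG and 308, 551, 557, 1171 and 396 in DRG (log2 difference -4.68, SE 0.33, adjusted p = 1.94e-07). All 5 DRG arrays exceeded the highest NG array for Grik1 more than 10-fold. Among the AMPA receptor genes, Gria2, whose edited subunit blocks calcium entry, read 1350, 989.5, 1028, 1226 and 2014 in NG and 304, 282, 246, 254 and 288 in DRG (log2 difference 2.18, SE 0.18, adjusted p = 8.24e-07). A second probe set of Gria2 gave a difference of 2.30. Gria3 was also higher in NG at low signal, with 40.2, 128, 41.6, 123 and 40.2 in NG and 6.77, 5.56, 17.3, 1.74 and 4.02 in DRG (2.17, SE 0.36). Gria2 and Gria3 thus lay on the same side in every array. Gria1 lay on the other, with 46.02, 3.99, 59.9, 85.9 and 123 in NG and 178, 228, 153, 96.1 and 153 in DRG (log2 difference -1.49, SE 0.46, adjusted p = 0.0312). Its NG array 014 exceeded DRG array 010, and the call was lost with an array left out (adjusted p 0.0519 to 0.0766 without any 1 of NG 003 or DRG 003, 008, 014 or 006); without both NG arrays 010 and 014 the difference was -2.11. Gabrb1, a GABA-A receptor subunit, read 37.2 ± 25.8 in NG and 281 ± 102 in DRG (-2.73, SE 0.35). Of 22 tested ligand-gated channel genes, 3 were higher in NG, 6 were higher in DRG and 13 were not called (median log2 difference -0.15), with 3 higher in DRG without DRG array 003 or 008.

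**Figure D3:**
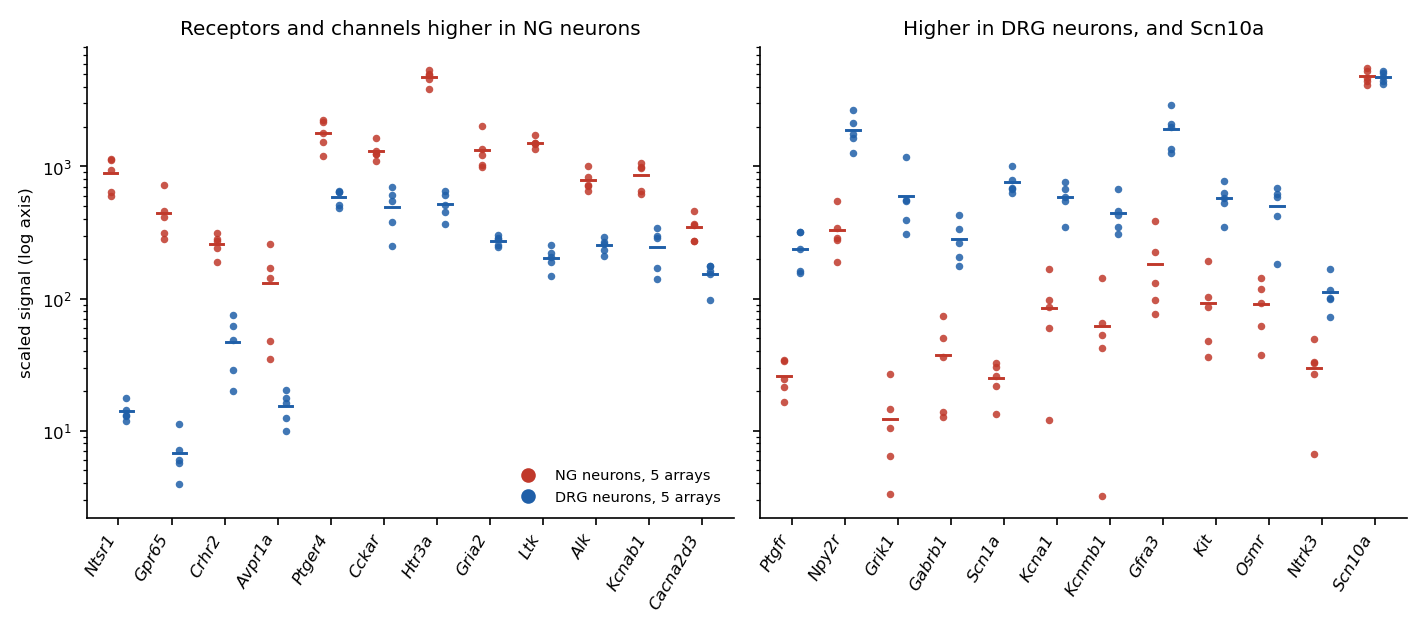
Scaled signal on a log axis of 24 receptor and channel genes on each of the 5 NG arrays (red) and 5 DRG arrays (blue), with bars at the group means. The groups stand apart for Ntsr1, Gpr65 and Htr3a on the left and for Grik1, Scn1a and Gfra3 on the right, and they overlap for Scn10a.

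Sodium and potassium channel genes that were called lay mostly on the DRG side. Scn1a, the sodium channel Nav1.1 of fast-spiking and large sensory neurons, had 30.6, 13.3, 21.9, 25.99 and 32.4 in NG and 1014, 631, 682, 676 and 783 in DRG (21.9-fold, log2 difference -4.46, SE 0.19, adjusted p = 1.09e-09), and a second probe set gave -2.98. Scn8a, the nodal sodium channel Nav1.6, was dimmer, with 30.8 ± 15.7 in NG and 73.7 ± 20.6 in DRG (-1.10, SE 0.30); it was not called with the Gapdh ratio as a covariate. By contrast, Scn10a, the tetrodotoxin-resistant channel of nociceptors, had 4119, 4448, 5527, 5284 and 4678 in NG and 5240, 4228, 5058, 4410 and 4778 in DRG. Its difference was 0.02 with a 95% interval of -0.19 to 0.23, and the arrays of both ganglia were interleaved. Of 5 tested sodium channel and partner genes, 0 were higher in NG, 2 were higher in DRG and 3 were not called (median log2 difference -0.47).

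Potassium channel genes numbered 25 tested, of which 2 were higher in NG, 8 were higher in DRG and 15 were not called (median log2 difference -0.06); without NG array 014, 4 were higher in NG. Kcna1, which encodes the low-threshold channel Kv1.1, read 167, 59.9, 12, 97.95 and 86.7 in NG and 548, 679, 347, 584 and 764 in DRG (log2 difference -2.88, SE 0.42, adjusted p = 0.000188). Kcnmb1, an auxiliary subunit of the BK channel, read 3.18, 52.8, 144, 65.7 and 42.1 in NG and 307, 427, 680.4, 457 and 346 in DRG (log2 difference -2.98, SE 0.47, adjusted p = 0.000394). Every DRG array lay above every NG array for both, while the NG arrays spread widely. Kcnj9, the gene of an inward rectifier coupled to G proteins, was 3.2-fold higher in DRG (-1.68, SE 0.23) and Kcnh1 was also higher there (-1.47, SE 0.32). On the NG side were Kcnab1, an auxiliary subunit that speeds inactivation of Kv1 channels, with 656, 971, 614, 998 and 1067 in NG and 140, 289, 169, 339.9 and 295 in DRG (log2 difference 1.80, SE 0.24, adjusted p = 0.000101), and the ERG channel Kcnh2 (0.73, SE 0.15). Hcn2, a pacemaker channel, was not called (0.25, SE 0.15, adjusted p = 0.247), but its second probe set was (0.71).

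Of 8 tested calcium channel genes, 2 were higher in NG, 0 were higher in DRG and 6 were not called (median log2 difference -0.01). The NG-higher pair were the auxiliary subunits Cacna2d3, with 368, 360.5, 270.3, 274 and 463 in NG and 161, 175, 98.2, 154 and 177 in DRG (log2 difference 1.13, SE 0.19, adjusted p = 0.000713), and Cacng2, which also traffics AMPA receptors (0.87, SE 0.23). Cacng2 was not called without both NG arrays 010 and 014 (0.68, adjusted p = 0.0825). Among 7 genes listed with TRP and acid-sensing channels, the acid-sensing channel Asic2 was higher in DRG (-0.48, SE 0.15) and lost its call with an array left out (adjusted p 0.052 to 0.0828 without any 1 of NG 003, 007 or 014 or DRG 003, 008, 010 or 014). The NG-higher one was Trpc4ap, which encodes a protein that associates with TRP channels rather than a channel. Scn9a, Oprm1, Cnr1 and Npy1r, known in sensory neurons, were too dim to be tested.

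Receptors for growth factors and cytokines were the list with the highest share called towards DRG. Of 16 tested, 2 were higher in NG, 8 were higher in DRG and 6 were not called (median log2 difference -0.43). Gfra3, the artemin receptor of peptidergic nociceptors, had 97.7, 76.8, 132, 383 and 224 in NG and 2113, 1988, 2929, 1259 and 1361 in DRG (11.2-fold, log2 difference -3.48, SE 0.35, adjusted p = 7.49e-06). Kit, the stem cell factor receptor, had 36.2, 47.9, 85.6, 194 and 102 in NG and 533, 633, 578, 348 and 770.4 in DRG (log2 difference -2.65, SE 0.33, adjusted p = 5.54e-05). Osmr, a subunit of the oncostatin M and interleukin-31 receptors, had 62.1, 37.6, 143, 119 and 91.96 in NG and 183, 687, 614, 586 and 420.4 in DRG (log2 difference -2.31, SE 0.36, adjusted p = 0.000345). All DRG arrays lay above all NG arrays for Gfra3, Kit and Osmr, and NG array 010 or 008 was the highest of the NG arrays. Fgfr1 was higher in DRG as well, with 244 ± 109.6 in NG and 773 ± 188 in DRG (-1.77, SE 0.34), and so was Ntrk3, the neurotrophin-3 receptor of proprioceptors, at 29.6 ± 15.3 in NG and 111 ± 35.6 in DRG (-1.67, SE 0.31), which was chosen after its values were seen.

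The exceptions were a pair of related receptor tyrosine kinases. Ltk had 1741, 1487, 1510, 1502 and 1349 in NG and 221, 188, 254, 148 and 205 in DRG (7.24-fold, log2 difference 2.85, SE 0.15, adjusted p = 6.96e-09). Alk, its closest relative, had 657, 707, 1003, 828 and 724 in NG and 234, 209, 269, 257 and 294 in DRG (log2 difference 1.59, SE 0.15, adjusted p = 3.67e-06). Both were higher on every NG array than on any DRG array. Ret and Ntrk2 were too dim on this array type to be tested.

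Peptide precursors differed mostly towards DRG. Tac1, the precursor of substance P and neurokinin A, had 258, 51.6, 170.4, 743 and 372 in NG and 4096, 3750, 4897, 3318 and 3946 in DRG (16.3-fold, log2 difference -4.03, SE 0.46, adjusted p = 2.39e-05). The NG arrays spread over more than 10-fold, from array 007 to array 010, and none reached the DRG arrays; without NG arrays 010 and 014 the difference was -4.78. Nmb, the neuromedin B precursor, had 113, 121, 130.3, 159 and 95.6 in NG and 501, 334, 480.2, 363 and 368 in DRG (log2 difference -1.64, SE 0.17, adjusted p = 7.52e-06). Adcyap1, the PACAP precursor, had 2060, 1802, 2127, 3186 and 1504 in NG and 5432, 4760, 5732, 4438 and 4852 in DRG (log2 difference -1.27, SE 0.16, adjusted p = 5.31e-05). The vesicle protein chromogranin B (Chgb) was higher in DRG (-1.14, SE 0.13), whereas chromogranin A (Chga) was higher in NG (0.46, SE 0.14), a call that was lost with an array left out (adjusted p 0.0527 to 0.0829 without any 1 of NG 010, 007 or 008 or DRG 008, 010 or 006). Galanin (Gal) was higher in DRG (-0.75, SE 0.18), and one of its probe sets was not called (-0.22). Of 17 tested peptide and granin genes, 1 was higher in NG, 8 were higher in DRG and 8 were not called (median log2 difference -0.24). Vip was too dim to be tested.

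Of 7 tested enzymes that cut peptide precursors, 2 were higher in NG, 0 were higher in DRG and 5 were not called (median log2 difference 0.09). Those higher in NG were Pcsk1, the prohormone convertase 1 gene, with 505 ± 117 in NG and 305 ± 60.8 in DRG (0.70, SE 0.18), and Cpd, a carboxypeptidase, with 466 ± 159 in NG and 183 ± 41.5 in DRG (1.26, SE 0.23). A second probe set of Cpd was not called (0.04), and Pcsk1 was not called with the deposited signals left unscaled or without both NG arrays 010 and 014.

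Monoamine genes were led by Ddc, the decarboxylase that makes dopamine and serotonin from their precursors, with 2756, 871, 1095, 1296 and 1238 in NG and 63.8, 26.1, 36.3, 64.1 and 46.8 in DRG (24.1-fold, log2 difference 4.59, SE 0.28, adjusted p = 5.23e-08). NG array 003 was the highest, and all NG arrays exceeded all DRG arrays more than 10-fold. Maoa, which degrades monoamines, was 2.05-fold higher in NG, at 803 ± 136 in NG and 396 ± 117 in DRG (1.04, SE 0.20). Th, the enzyme before Ddc in dopamine synthesis, was not called (435, 440.5, 871, 312 and 514 in NG and 535, 655, 909.7, 567 and 672 in DRG, difference -0.43, adjusted p = 0.207); without NG array 008, the highest NG array, its adjusted p was 0.026, towards DRG. Cyb561, a granule cytochrome, was read by probe sets that disagreed, called in DRG (-1.86) and in NG (0.58). Of 10 tested, 3 were higher in NG, 1 was higher in DRG and 6 were not called (median log2 difference 0.22).

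The windows before the start of transcription of Ddc (the first of its 2 in RefSeq, chr11:11898145-11898394, minus strand) and Tac1 (chr6:7554811-7555060, plus strand), the genes of these families with the largest difference in each direction, are shown as for the receptors above. The second window of Ddc held neither motif. The capitals are TATAAA on the reverse strand, 68 bases before the start, in Ddc and GGGCGG, 107 bases before the start, in Tac1.
Ddc: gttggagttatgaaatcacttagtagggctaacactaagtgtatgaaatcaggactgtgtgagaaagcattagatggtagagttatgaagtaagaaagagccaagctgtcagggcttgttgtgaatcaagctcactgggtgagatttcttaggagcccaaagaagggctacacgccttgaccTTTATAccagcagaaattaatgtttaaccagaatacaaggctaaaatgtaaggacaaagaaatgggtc
Tac1: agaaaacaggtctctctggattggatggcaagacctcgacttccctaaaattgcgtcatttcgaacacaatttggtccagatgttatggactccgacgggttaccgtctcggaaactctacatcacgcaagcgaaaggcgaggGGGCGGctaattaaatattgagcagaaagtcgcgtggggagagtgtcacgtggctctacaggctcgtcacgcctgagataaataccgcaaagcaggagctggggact

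The windows of all called genes at least 2-fold apart were searched for the same and other motifs, from 250 bases before to 50 after the start. The GC box was the most common in each set. RefSeq windows matched 107 of the 141 genes at least 2-fold higher in NG (144 windows) and 228 of the 294 higher in DRG (301 windows), and 4657 of the 5784 tested (6052 windows). A GC box was found in 61.1% of NG-higher, 58.5% of DRG-higher and 61.7% of tested windows, against 35.7% of all mouse windows. TATAAA was found in 9.72%, 6.98% and 8.23%, and in 13.6% of all. The PBX-HOX composite TGATTNAT was found in 0 of 144 and 9 of 301 windows (2.99%), against 1.42% of tested and 3.22% of all. The cyclic AMP response element TGACGTCA was found in 2.08% and 2.99%, against 2.88% of tested and 1.79% of all. All motifs were searched on both strands. A match is a description of letters, not a site.

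Hox genes, transcription factors that record position along the body axis, differed in both directions. Hoxb5 had 2237, 2440, 2402, 2172 and 3121 in NG and 282, 213, 224, 220.4 and 335 in DRG (9.43-fold, log2 difference 3.24, SE 0.15, adjusted p = 2.98e-09). Hoxb4 had 172, 72.8, 121, 53.9 and 57.8 in NG and 10.2, 4.4, 6.04, 8.93 and 12.04 in DRG (log2 difference 2.40, SE 0.30, adjusted p = 4.48e-05), and Hoxb6 had 386, 540.5, 475, 509 and 472 in NG and 190.5, 173, 139, 199 and 188 in DRG (log2 difference 1.37, SE 0.15, adjusted p = 1.08e-05). All 3 were higher on every NG array, as was the dimmer Hoxc4 (0.87, SE 0.19). In the other direction, Hoxa7 had 5.93, 12.2, 11.2, 10.9 and 7.23 in NG and 275, 219, 307, 187 and 248 in DRG (12.9-fold, log2 difference -3.69, SE 0.19, adjusted p = 6.59e-09). Hoxd8 had 124, 209.5, 199.6, 206 and 116 in NG and 456, 398, 523, 601 and 419.7 in DRG (log2 difference -1.46, SE 0.19, adjusted p = 7.86e-05), and Hoxb7 had 85.6, 87.6, 72.3, 61.3 and 56.1 in NG and 164, 155, 188, 172 and 169 in DRG (log2 difference -1.13, SE 0.16, adjusted p = 0.000134).

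Hoxd1, an anterior paralogue known in nociceptors of mice, was also higher in DRG. It had 20.4, 0.78, 13.2, 53.6 and 16.5 in NG and 389, 440.4, 286, 201 and 347 in DRG (12.3-fold, log2 difference -3.63, SE 0.36, adjusted p = 6.14e-06), and a second probe set gave -3.27. Hoxa5 was on the DRG side (-0.64, SE 0.20) and lost its call with an array left out (adjusted p 0.0502 to 0.0884 without any 1 of NG 010, 003, 008 or 014 or DRG 003, 010, 014 or 006). Of 31 Hox genes on the array, 17 were tested, of which 4 were higher in NG, 5 were higher in DRG and 8 were not called (median log2 difference 0.18). Those not called were Hoxb1, Hoxa2, Hoxb3, Hoxa4, Hoxa6, Hoxb8, Hoxc8 and Hoxa9, with differences from -0.64 to 0.54. Hoxb3 was called towards NG without NG array 010 (adjusted p = 0.0403) or without both 010 and 014 (0.0468). The other 14 were too dim to be tested. Within the HoxB cluster, Hoxb4, Hoxb5 and Hoxb6 were higher in NG and Hoxb7 was higher in DRG.

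**Figure D4:**
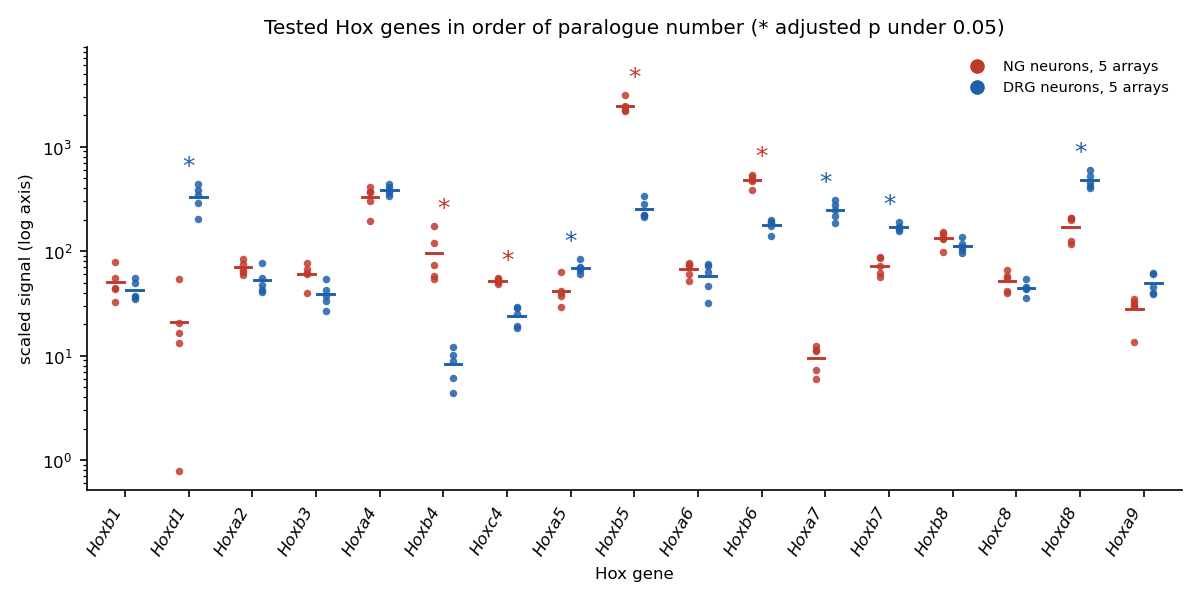
Scaled signal on a log axis of the 17 tested Hox genes on each NG array (red) and DRG array (blue), ordered by paralogue number, with bars at the group means and an asterisk in the colour of the higher group where the gene was called. The calls towards NG lie at paralogues 4 to 6 and those towards DRG at 1, 5, 7 and 8.

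Pbx3, a partner of Hox proteins on DNA, was higher in NG, with 2363, 4035, 3241, 3932 and 3801 in NG and 584, 478, 647, 706 and 585 in DRG (log2 difference 2.50, SE 0.16, adjusted p = 5.26e-08). Its other 2 probe sets gave 1.82 and 2.04. Tbx3, a T-box factor of visceral neurons, had 371, 226, 279, 386 and 336 in NG and 31.2, 23.3, 14.98, 32.6 and 38.4 in DRG (8.64-fold, log2 difference 3.11, SE 0.21, adjusted p = 1.17e-07), and Tlx2 was 2.09-fold higher in NG (1.06, SE 0.18). Hmx1, a homeobox factor of somatosensory ganglia, had 12.04, 7.34, 10.1, 21.8 and 42.7 in NG and 191, 179, 221, 131 and 104 in DRG (log2 difference -2.66, SE 0.30, adjusted p = 1.68e-05), and Shox2, a factor of touch neurons, had 53.8, 29.3, 40.6, 29.3 and 92.6 in NG and 177, 158, 265, 223 and 291 in DRG (log2 difference -2.03, SE 0.26, adjusted p = 6.57e-05). For each of these the arrays of the ganglia did not overlap.

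Factors common to both kinds of sensory neuron differed less. Ldb2 (0.92, SE 0.21) and Ebf1 (0.76, SE 0.17) were higher in NG, and Isl1 was called there (0.69, SE 0.22) but lost the call with an array left out (adjusted p 0.056 to 0.0922 without any 1 of NG 010, 003 or 014 or DRG 003, 008 or 010). Of 15 factors listed for somatosensory neurons, 3 were higher in NG, 2 were higher in DRG and 10 were not called (median log2 difference 0.06). Of 13 listed for placode-derived and visceral neurons, 2 were higher in NG, 1 was higher in DRG and 10 were not called (median log2 difference 0.05). The DRG-higher one was Sox2, at 13.4 ± 7.72 in NG and 61.5 ± 16.2 in DRG (-1.63, SE 0.28), which satellite glia also express. Sox2 is itself a member of the glial list, whose sum was higher on the DRG arrays. The part of glia in the Sox2 difference was not tested. Phox2a was too dim to be tested. Retinoid genes lay on the DRG side or were not called. Aldh1a1, an enzyme that makes retinoic acid, had 6.78, 5.74, 1.11, 19.9 and 53.6 in NG and 151, 240, 105, 155 and 147 in DRG (log2 difference -2.85, SE 0.39, adjusted p = 0.000101), and the receptor Rxrg had 7.04, 4.45, 3.63, 5.14 and 6.06 in NG and 126, 101, 84.6, 50.4 and 91.9 in DRG (log2 difference -2.65, SE 0.24, adjusted p = 3.08e-06). Of 7 tested, 0 were higher in NG, 3 were higher in DRG and 4 were not called (median log2 difference -0.15).

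Intermediate filaments of large axons were higher in DRG. Nefh, the heavy neurofilament, had 1118, 1180, 1241, 1235 and 1310 in NG and 5718, 4501, 4750, 5132 and 5286 in DRG (4.14-fold, log2 difference -2.05, SE 0.10, adjusted p = 2.9e-09). Nefm, the medium one, had 155, 122, 179, 181 and 161 in NG and 714, 648, 476, 685 and 1053 in DRG (log2 difference -2.06, SE 0.19, adjusted p = 3.09e-06), and Ina, alpha-internexin, had 721, 222, 518, 843 and 485 in NG and 2057, 1414, 2706, 1425 and 1290 in DRG (log2 difference -1.72, SE 0.30, adjusted p = 0.000933). Nefl, the light one, differed less (-0.67, SE 0.17), was named after its values were seen, and was not called with the Gapdh ratio as a covariate. Prph, the filament of small sensory neurons, had 7082, 8181, 7935, 8257 and 6791 in NG and 6368, 6418, 7381, 6409 and 5847 in DRG and was not called (adjusted p = 0.0575). It was called towards NG after quantile normalization, with array weights, and without DRG array 008 (adjusted p = 0.0319) or NG array 014 (0.0334), and a second probe set was called towards NG (0.99).

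Of cytoskeletal genes, Fhod3, a formin that assembles actin, had 2091, 2005, 1876, 2259 and 2275 in NG and 106, 129, 164, 154 and 141 in DRG (14.2-fold, log2 difference 3.83, SE 0.14, adjusted p = 2.08e-10). Tes, a focal adhesion protein, had 389, 693, 494, 700.3 and 975 in NG and 52.1, 41.6, 31.2, 47.2 and 57.2 in DRG (log2 difference 3.50, SE 0.23, adjusted p = 8.32e-08). The microtubule regulators Stmn4 (0.93, SE 0.19) and Stmn3 (0.46, SE 0.09) followed, and Stmn3 was not called with the deposited signals left unscaled or in a second probe set (0.35). Of 35 tested cytoskeletal genes, 7 were higher in NG, 6 were higher in DRG and 22 were not called (median log2 difference 0.20), with 4 higher in NG without DRG array 006.

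Genes of synaptic release were called in both directions. Of 35 tested, 7 were higher in NG, 3 were higher in DRG and 25 were not called (median log2 difference 0.01). Syt17, a synaptotagmin relative, had 712, 256, 333, 290.4 and 330.3 in NG and 31.01, 60.8, 43.3, 8.04 and 8.16 in DRG (log2 difference 3.39, SE 0.38, adjusted p = 1.7e-05), with NG array 003 the highest. Sh3gl3, endophilin A3, read 605 ± 205 in NG and 183 ± 112 in DRG (1.82, SE 0.38). Syt2, a fast calcium sensor of release, was higher in DRG at 1465 ± 349 in NG and 2706 ± 462 in DRG (-0.90, SE 0.17). The NSF partners differed in direction. Napa was higher in DRG (-0.71, SE 0.16) and Napb in NG (0.81, SE 0.16), where a second probe set was not called (0.33). Snap25 was not called (3900, 2981, 3583, 4415 and 4155 in NG and 3849, 4205, 3454, 3804 and 4497 in DRG, adjusted p = 0.728).

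Enzymes of cyclic nucleotide signalling differed by isoform. Pde9a, a phosphodiesterase for cyclic GMP, had 176, 276, 99.4, 149.5 and 177 in NG and 6.41, 9.38, 6.13, 7.97 and 4.58 in DRG (log2 difference 3.37, SE 0.24, adjusted p = 1.94e-07), and Pde8a, one for cyclic AMP, had 323, 240.5, 124, 214 and 253 in NG and 42.7, 67.3, 26.3, 71.5 and 58.9 in DRG (log2 difference 1.92, SE 0.26, adjusted p = 0.000115), both higher in NG. Adcy8, a calcium-stimulated adenylyl cyclase, had 838, 991, 596, 806 and 550 in NG and 129, 193, 111, 168 and 198 in DRG (log2 difference 2.17, SE 0.20, adjusted p = 3.08e-06). In whole ganglia Adcy8 was called the other way (-0.69, adjusted p = 0.000232); the change of direction between preparations was not tested. Adcy7, another cyclase, was higher in DRG, with 45.97, 6.31, 43.7, 155 and 141 in NG and 367, 273, 346, 162 and 272 in DRG (log2 difference -2.10, SE 0.49, adjusted p = 0.00689), with -2.93 without both NG arrays 010 and 014; it was not called with the Gapdh ratio as a covariate (-1.77, adjusted p = 0.0534).

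Several calcium handling genes were higher in DRG. S100a6, a calcium-binding protein, had 51.1, 57.5, 69.8, 110.2 and 63.8 in NG and 721, 492, 618, 587 and 609.5 in DRG (log2 difference -2.96, SE 0.18, adjusted p = 5.26e-08). Ryr2, a calcium release channel, had 73.6, 16.9, 45.5, 51.05 and 77.9 in NG and 402, 349, 423, 494 and 437 in DRG (log2 difference -2.87, SE 0.27, adjusted p = 3.51e-06). Prkcq, protein kinase C theta, had 97.8, 71.1, 90.2, 57.4 and 77.6 in NG and 406, 368, 275, 875 and 506 in DRG (log2 difference -2.38, SE 0.25, adjusted p = 1.16e-05). No NG array reached the lowest DRG array for these 3. Of 50 tested genes of the combined list, 7 were higher in NG, 11 were higher in DRG and 32 were not called (median log2 difference -0.01).

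Among regulators of G proteins, Rgs10 was higher in DRG, with 103, 119, 168, 237 and 144 in NG and 1098, 704, 1712, 1375 and 1281 in DRG (log2 difference -2.91, SE 0.24, adjusted p = 1.16e-06), as was Rgs8 (-0.90, SE 0.18). Rgs7 (1.08, SE 0.14) and Rgs11 (0.81, SE 0.18), members of another RGS subfamily, were higher in NG. Gnb4, a G protein beta subunit, was called towards NG (1.85, SE 0.54), with overlapping arrays of 41.2, 233, 253, 44.3 and 247 in NG and 46.96, 82.7, 11.2, 10.5 and 21.01 in DRG. That call was lost with an array left out (adjusted p 0.0538 to 0.0624 without any 1 of NG 007, 008 or 014 or DRG 008, 010 or 014). Of 29 tested, 6 were higher in NG, 4 were higher in DRG and 19 were not called (median log2 difference 0.04). The copine Cpne6, a calcium-dependent membrane-binding protein, was higher in DRG (171 ± 30.01 in NG and 1546 ± 361 in DRG, -3.08, SE 0.19).

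Axon guidance receptors included both directions. Unc5c, a netrin receptor, had 931, 805, 895, 1011 and 940 in NG and 222, 186, 251, 292 and 333 in DRG (log2 difference 1.82, SE 0.16, adjusted p = 1.57e-06), all NG arrays above all DRG arrays. Plxna2, a semaphorin receptor, had 89.05, 76.8, 7.74, 72.5 and 72.6 in NG and 434, 357, 285, 264 and 260 in DRG (log2 difference -2.34, SE 0.38, adjusted p = 0.000503), and NG array 008 lay far below the other NG arrays. Efna1, an ephrin, was higher in DRG (-1.42, SE 0.15), as were Plxnd1 (-1.07, SE 0.16) and Sema6c (-1.12, SE 0.28), the last not called without both NG arrays 010 and 014. Sema4b was higher in NG (1.19, SE 0.23), with a second probe set not called (0.36). Of 27 tested, 3 were higher in NG, 6 were higher in DRG and 18 were not called (median log2 difference 0.05). The NG count includes Unc50, which is not a guidance receptor and entered by its name.

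Matrix genes were called towards DRG about as often as all genes but held some of the largest differences. Vcan, the proteoglycan versican, had 17.2, 15.4, 91.1, 290 and 66.05 in NG and 1638, 1421, 1997, 926 and 800.3 in DRG (18.5-fold, log2 difference -4.21, SE 0.54, adjusted p = 5.9e-05). Without both NG arrays 010 and 014 its difference was -4.95. Frzb, a secreted Wnt inhibitor, had 7.14, 9.14, 9.59, 25.2 and 9.84 in NG and 317, 316, 506, 219 and 199 in DRG (13.99-fold, log2 difference -3.81, SE 0.26, adjusted p = 1.43e-07), and Ror2, a Wnt5a receptor, had 39.6, 4.71, 6.94, 39.4 and 20.3 in NG and 212, 240.2, 257, 287 and 221 in DRG (log2 difference -3.13, SE 0.31, adjusted p = 6.46e-06). Dcn, the fibroblast proteoglycan decorin, had 1719, 501, 545, 1953 and 1844 in NG and 4874, 2407, 3705, 1648 and 3388 in DRG (log2 difference -1.42, SE 0.40, adjusted p = 0.0186; adjusted p = 0.0509 without DRG 003), with overlapping arrays, and it was not called with the Gapdh ratio as a covariate. Without Dcn and Thy1 the connective tissue sums of the ganglia overlapped. Of 52 tested matrix genes, 2 were higher in NG, 6 were higher in DRG and 44 were not called (median log2 difference 0.01).

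Itgav, the alpha V integrin, had 181, 171, 192, 272 and 152 in NG and 1159, 1101, 1335, 1259 and 830.4 in DRG (log2 difference -2.50, SE 0.17, adjusted p = 1.43e-07), and the axonal adhesion protein Cntn1 read 274 ± 78.1 in NG and 815 ± 183 in DRG (-1.55, SE 0.20), both higher in DRG. The adhesion proteins Icam5 (1.33, SE 0.23), Alcam (1.04, SE 0.21) and Mcam (0.97, SE 0.19) were higher in NG. In whole ganglia Alcam was called the other way (-0.42, adjusted p = 0.00196). It was not called in the Mouse430_2 samples described below (-0.07, adjusted p = 0.837), and these changes were not tested. Of 32 tested adhesion genes, 6 were higher in NG, 12 were higher in DRG and 14 were not called (median log2 difference -0.21), with 3 higher in NG without DRG array 006. The list holds Cdh5 (-1.80, SE 0.24) and Mcam, which are also markers of vessels and lay in opposite directions.

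Several genes with large differences belonged to none of the families above. On the NG side, Cavin2, a protein of caveolae, had 528, 2003, 2771, 2332 and 1541 in NG and 40.3, 80.7, 43.5, 54.5 and 33.8 in DRG (27.4-fold, log2 difference 4.77, SE 0.36, adjusted p = 3.96e-07), and Man1a, a mannosidase of the Golgi, had 329, 132, 137, 277 and 427 in NG and 6.43, 5.7, 2.47, 5.91 and 4.56 in DRG (log2 difference 4.001, SE 0.30, adjusted p = 2.92e-07). Ptpro, a receptor tyrosine phosphatase, had 1188, 1622, 1318, 1840 and 2158 in NG and 96.2, 163, 161, 250 and 166 in DRG (log2 difference 3.23, SE 0.22, adjusted p = 1.43e-07). Slc12a7, a potassium-chloride cotransporter, had 933 ± 309 in NG and 161 ± 73.3 in DRG (2.51, SE 0.29). Slc9b2 (3.08, SE 0.29), Sqor, which oxidises sulfide in mitochondria (2.89, SE 0.25), and Fndc1 (2.60, SE 0.25) followed.

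On the DRG side, Aqp1, a water channel, had 20.9, 13.2, 8.25, 81.5 and 52.9 in NG and 512, 852, 490.5, 487 and 499 in DRG (14.8-fold, log2 difference -3.89, SE 0.37, adjusted p = 3.85e-06). A second, dimmer probe set was not called (-0.71), and without both NG arrays 010 and 014 the difference was -4.55. Hopx, an atypical homeodomain protein, had 372, 366, 438, 438 and 379.7 in NG and 4456, 3583, 4023, 4401 and 4139 in DRG (10.1-fold, log2 difference -3.34, SE 0.11, adjusted p = 1.43e-10), and Pcp4l1 had 298, 162, 298, 466 and 242 in NG and 3528, 2075, 2466, 2348 and 2818 in DRG (log2 difference -3.18, SE 0.23, adjusted p = 2.04e-07). Both groups were tight for Hopx. Hif1a, a subunit of the oxygen-sensitive factor HIF-1, had 91.6, 43.2, 43.9, 74.6 and 78.5 in NG and 744, 1016, 967, 611 and 708 in DRG (10.9-fold, log2 difference -3.44, SE 0.21, adjusted p = 5.23e-08), and a second probe set gave -2.85. In whole ganglia it was not called (0.30, adjusted p = 0.111). Dppa2 was also higher in DRG (-2.94, SE 0.29).

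Efflux pumps differed in direction. Abcb1a, which encodes a P-glycoprotein, had 283, 278, 294, 272 and 329.5 in NG and 3.88, 11.8, 9.76, 16.97 and 18.4 in DRG (13.7-fold, log2 difference 3.78, SE 0.20, adjusted p = 9.32e-09). It is also a marker of brain endothelium. The endothelial sum was lower on the NG arrays without Abcb1a, Mcam and Kdr. These are the vessel genes called towards NG, so leaving them out had to shift the sum that way. Cdh5, a defining endothelial gene, read 13.1, 5.45, 11.7, 9.79 and 11.9 in NG and 49.2, 59.8, 52.4, 56.2 and 99.5 in DRG. Of 12 tested vessel genes, 3 were called towards NG, Abcb1a, Mcam and Kdr, and 4 towards DRG, Cdh5 among them. The other DRG-higher ones, Eng, Rgs5 and Slc2a1, each lost the call with an array left out. Those shares were 25% and 33.3%, against 11.0% and 11.9% of all genes. Which cells gave the Abcb1a signal was not tested. Abcb4, a phospholipid transporter, had 1077, 1030, 1320, 1021 and 1141 in NG and 164, 167, 259.9, 218 and 207 in DRG (log2 difference 2.42, SE 0.15, adjusted p = 5.23e-08). Abcg2 was higher in DRG, with 257, 124, 251, 201 and 213 in NG and 1124, 1621, 932, 1158 and 1477 in DRG (log2 difference -2.55, SE 0.20, adjusted p = 6.72e-07), as was Abcc3 (-1.36, SE 0.21). Of 58 tested detoxifying genes, 9 were higher in NG, 8 were higher in DRG and 41 were not called (median log2 difference -0.01). Among them, Gstm3 (0.95, SE 0.15) and Cyp4v3 (1.75, SE 0.17) were higher in NG and Mgst3 (-1.14, SE 0.21) in DRG. A second probe set of Gstm3 was not called (-0.20).

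Pla2g7, which degrades platelet-activating factor, had 7.98, 7.22, 14.9, 52.05 and 49.7 in NG and 529, 475, 506, 591 and 506 in DRG (16.9-fold, log2 difference -4.08, SE 0.33, adjusted p = 8.51e-07), with NG arrays 010 and 014 above the other NG arrays; without them the difference was -4.71. Abca1, a cholesterol exporter, had 10.8, 18.6, 5.39, 12.4 and 51.6 in NG and 231, 209.5, 201, 129 and 158 in DRG (log2 difference -2.85, SE 0.31, adjusted p = 1.45e-05). Called enzymes of cholesterol synthesis lay towards NG and under 2-fold, among them Fdft1 (0.46, SE 0.09), Hmgcs1 (0.44, SE 0.10) and Mvk (0.61, SE 0.15). Fdft1 (adjusted p = 0.0823) and Hmgcs1 (0.200) were not called with the deposited signals left unscaled, nor Mvk with the Gapdh ratio as a covariate (0.061), and a second probe set of Mvk read -0.02. Of 33 tested lipid genes, 4 were higher in NG, 4 were higher in DRG and 25 were not called (median log2 difference 0.07).

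Glycolytic enzymes were called mostly towards NG, with small differences. Of 14 tested, 6 were higher in NG, 1 was higher in DRG and 7 were not called (median log2 difference 0.22). The NG count was 2 with the deposited signals left unscaled and 3 with the Gapdh ratio as a covariate. Pfkp, a phosphofructokinase, had 5658, 5184, 6553, 5197 and 5420 in NG and 3504, 3337, 2598, 3704 and 3357 in DRG (log2 difference 0.77, SE 0.11, adjusted p = 0.000115). Eno2, the neuronal enolase, read 4882 ± 1130 in NG and 2993 ± 735 in DRG (0.71, SE 0.18) and was not called with the deposited signals left unscaled or with the Gapdh ratio as a covariate. Ldhb, a lactate dehydrogenase subunit, was the exception, with 593, 523, 536, 596 and 664 in NG and 1106, 979.6, 806, 1486 and 1553 in DRG (log2 difference -0.97, SE 0.17, adjusted p = 0.000991). Of 64 respiratory chain genes, 5 were higher in NG, 10 were higher in DRG and 49 were not called (median log2 difference 0.03). Uqcrc1, a core subunit of complex III, was higher in NG (0.67, SE 0.11), whereas the small subunit Cox7b of complex IV (-1.66, SE 0.21) and cytochrome c, Cycs (-1.31, SE 0.15), were higher in DRG.

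Ribosomal protein genes that were called lay mostly on the DRG side. Of 27 tested, 1 was higher in NG, 10 were higher in DRG and 16 were not called (median log2 difference -0.26). The DRG count was 5 without DRG array 003, 008 or 010 or NG array 014, and 6 without NG array 003. Rpl37a read 175, 169.6, 117, 76.99 and 80.8 in NG and 513, 338, 368, 362 and 360.2 in DRG (log2 difference -1.63, SE 0.22, adjusted p = 0.000117), and Rps18 read 236, 339, 411, 286 and 255 in NG and 893, 637, 842, 752 and 677 in DRG (log2 difference -1.30, SE 0.17, adjusted p = 5.53e-05). The NG-higher one was Rps4l (0.72, SE 0.14), with a second probe set not called (0.14). These genes have near-identical copies in the genome, so their signals may be shared, and neither Rpl37a (0.29, adjusted p = 0.531) nor Rps18 (0.26, adjusted p = 0.431) was called in the Mouse430_2 samples described below. Of 35 proteasome genes, 3 were higher in NG, 5 were higher in DRG and 27 were not called (median log2 difference -0.07), and of 15 genes of the vacuolar proton pump, 1 was higher in NG, 2 were higher in DRG and 12 were not called (median log2 difference 0.06). Atp6v1b2, a subunit of that pump, was higher in NG with tight groups, at 8031 ± 345 in NG and 5790 ± 247 in DRG (0.47, SE 0.07), but was not called with the deposited signals left unscaled.

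Genes that respond quickly to activity, injury or dissection were called in both directions. Of 29 tested, 3 were higher in NG, 4 were higher in DRG and 22 were not called (median log2 difference -0.03). Jun, an AP-1 subunit, had 108, 122, 124, 112 and 186 in NG and 1053, 817, 803, 1011 and 1070 in DRG (6.89-fold, log2 difference -2.79, SE 0.16, adjusted p = 3.3e-08). Gadd45a (-1.42, SE 0.18) and the phosphatase Dusp1 (-0.89, SE 0.19) were also higher in DRG. Klf6, a zinc finger factor, had 1360, 1663, 2076, 2738 and 2546 in NG and 812, 841, 904, 833 and 918 in DRG (log2 difference 1.21, SE 0.17, adjusted p = 0.000131), and Ddit3 was higher in NG (0.94, SE 0.19). Atf3, a partner of Jun that is induced by axon injury, was called towards NG (0.60, SE 0.18) but lost the call with an array left out (adjusted p 0.0544 to 0.0805 without any 1 of NG 003, 008 or 014 or DRG 014 or 006).

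Antigen presentation and interferon genes that were called lay mostly on the NG side. Of 39 tested, 6 were higher in NG (15.4%, against 11.0% of all genes) and 1 was higher in DRG (2.56%, against 11.9%). The other 32 were not called (median log2 difference 0.20), and the NG share was not far from that of all genes. The MHC class I gene H2-D1 had 2507, 3456, 3357, 3360 and 3233 in NG and 1732, 1776, 1806, 1790 and 1781 in DRG (log2 difference 0.83, SE 0.10, adjusted p = 4.57e-05), though class I genes are alike in sequence and can share signal. The class II gene H2-Aa, a marker of antigen-presenting cells, had 252, 278, 415, 442 and 637 in NG and 55.6, 85.2, 54.9, 66.7 and 95.3 in DRG (log2 difference 2.29, SE 0.24, adjusted p = 9.65e-06), and without it the macrophage sums were 1160 to 1393 in NG and 980.3 to 1227 in DRG. Of its partner genes, read after these values were seen, H2-Ab1 was dimmer, with 33.3 ± 19.4 in NG and 16.4 ± 8.19 in DRG. Cd74 had 92 ± 18.3 in NG and 98.4 ± 15.5 in DRG, dimmer than H2-Aa in NG only. Of 15 glial genes, 0 were higher in NG, 4 were higher in DRG and 11 were not called (median log2 difference -0.13). Gja1, the gap junction gene of satellite glia, had 374, 249, 214, 105 and 118 in NG and 863, 1111, 1056, 1044 and 814 in DRG (log2 difference -2.28, SE 0.27, adjusted p = 3.58e-05), and S100b had 389, 445, 406, 557 and 507 in NG and 1707, 1002, 1194, 1561 and 1644 in DRG (log2 difference -1.59, SE 0.17, adjusted p = 9.44e-06). Of 12 vessel genes, 3 were higher in NG, 4 were higher in DRG and 5 were not called (median log2 difference -0.08), with 1 or 2 higher in DRG without DRG array 006, 008, 010 or 014 or NG array 010 or 014. Of 10 immune genes, 2 were higher in NG, 1 was higher in DRG and 7 were not called (median log2 difference 0.05), of 12 genes of connective tissue, 0 were higher in NG, 2 were higher in DRG and 10 were not called (median log2 difference 0.02), and of 7 genes of blood and muscle, 1 was higher in NG, 0 were higher in DRG and 6 were not called (median log2 difference 0.24).

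**Figure D5:**
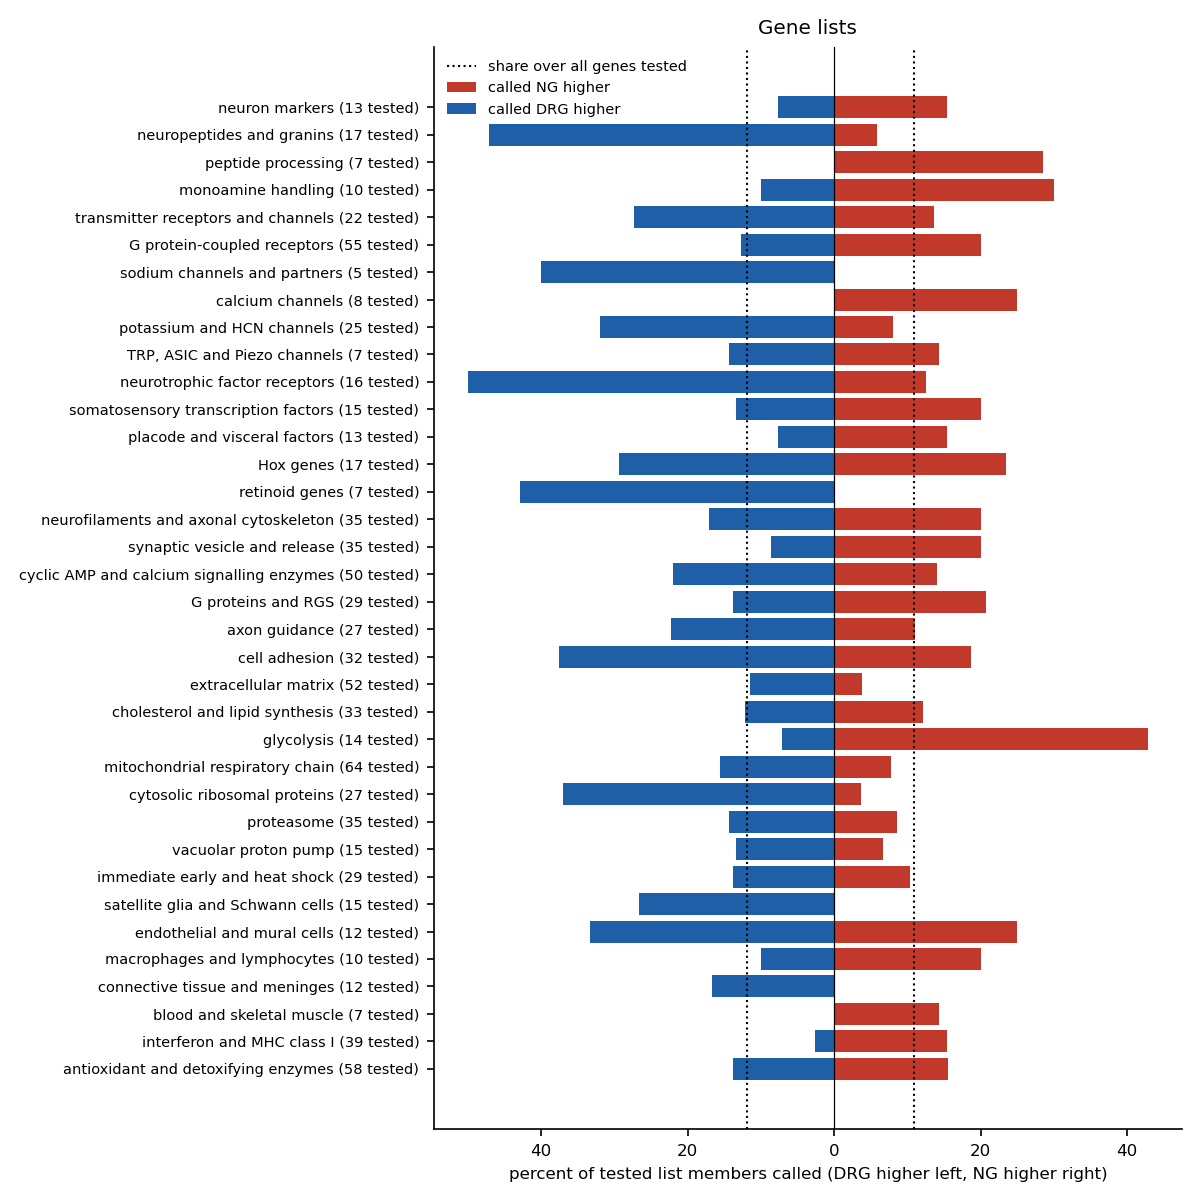
Percent of the tested members of each gene list called higher in NG (right, red) or in DRG (left, blue), with dotted lines at the shares over all genes tested (11.0% and 11.9%). Growth factor receptors and peptide genes have the longest bars towards DRG and glycolysis has the longest towards NG.

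Scaled differences were small for many genes. For 1211 of the 5784 genes the 95% interval of the difference lay within 0.5 of 0 on the log2 scale, and 12 of those were called. The brightest of them were Gnai2, Gnao1, Cbfb, Tuba1a, Sncg, Zwint, Gnas, Tuba1c, Tubb2a and Basp1. Tuba1a, an alpha tubulin, had 10750, 11190, 11520, 11960 and 9660 in NG and 13080, 9968, 11150, 10260 and 10560 in DRG and an interval of -0.18 to 0.18. Gnas, the stimulatory G protein subunit, had 10290, 11120, 10550, 10600 and 10210 in NG and 10880, 10000, 9711, 9943 and 9996 in DRG and an interval of -0.07 to 0.19. Second probe sets were called towards NG for Basp1 (0.46) and Cbfb (0.35) and towards DRG for Sncg (-0.47). In the Mouse430_2 samples described below, Gnao1 (-0.75, adjusted p = 0.00349) and Sncg (0.69, 0.00205) were called. Signals near the top of an array's range, 14680 here, can be compressed, and the part of this in the small differences was not tested. Of 13 general neuron markers, 2 were higher in NG, 1 was higher in DRG and 10 were not called (median log2 difference 0.21). Uchl1, a neuron marker, was not called (1750, 2642, 2013, 2177 and 2397 in NG and 1713, 1497, 1629, 1925 and 1854 in DRG, adjusted p = 0.0639), and it was called towards NG without NG array 003 (adjusted p = 0.0222) and after quantile normalization (0.0455).

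Some bright genes varied widely among the NG arrays. They included Cdk14, a cyclin-dependent kinase, with 189, 74.8, 105, 888 and 350.1 in NG, and Ly6e, a cell surface protein, with 106, 114, 325, 1247 and 506. DRG values were 1799, 1597, 1467, 1000 and 1610 for Cdk14 and 1980, 2076, 2628, 1255 and 2308 for Ly6e. Kdm6a, an X-linked histone demethylase, had 388, 135, 150, 782 and 444 in NG and 78.5, 80.1, 103, 58.6 and 107 in DRG. NG array 010 was the highest of the NG arrays for Tac1, Cdk14, Ly6e and Kdm6a. Without both NG arrays 010 and 014 the differences were -3.56 for Cdk14, -3.56 for Ly6e and 1.16 for Kdm6a.

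That array did not lie high for one direction alone. For the 294 genes at least 2-fold higher in DRG, NG array 010 was the highest NG array in 83 (28.2%), and for the 141 at least 2-fold higher in NG in 41 (29.1%), against 18.1% of all genes. Among DRG arrays the widest spreads included Lypla1, a thioesterase, with 173, 158, 1718, 213 and 209, where array 008 stood alone. Bmi1, a Polycomb protein, had 19.7, 139.9, 87.1, 85.96 and 84.1 in NG and 1017, 715, 367, 582 and 156 in DRG (log2 difference -2.55, SE 0.46, adjusted p = 0.00118), and the splicing factor Tra2b had 171, 124, 129, 102 and 133 in NG and 1491, 1235, 737, 689 and 332 in DRG (log2 difference -2.52, SE 0.31, adjusted p = 4.75e-05). Neither was called in whole ganglia (0.26 and 0.04, adjusted p = 0.487 and 0.913). Neither the control probe ratios nor the deposited trimmed mean differed past adjustment over these 3 measures. The beta actin 3′ over 5′ log2 ratio was 5.82 ± 0.23 for the NG arrays and 5.45 ± 0.18 for the DRG arrays (exact two-sided permutation p = 0.0238, adjusted 0.0714). The Gapdh ratio was 6.63 ± 0.25 in NG and 6.96 ± 0.38 in DRG (same test, p = 0.135, adjusted 0.202). In both ganglia the 3′ control probe sets were thus far brighter than the 5′ ones.

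The same contrast was read in Mouse430_2 samples whose numbers do not occur on MG-U74Av2, 6 from NG and 4 from DRG. Samples that share a number across the array types were left out of this check. Their deviations from the group mean correlated at 0.204 to 0.468 over 5331 genes, against -0.256 to 0.221 for different numbers, and 10 of 10 MG-U74Av2 arrays correlated best with their own number. In the remaining samples 18.3% of 14333 genes were called, 9.30% towards NG and 8.96% towards DRG. Of 613 NG-higher genes measured there, 248 (40.5%) were called in the same direction and 6 in the opposite one. Of 662 DRG-higher genes the counts were 249 (37.6%) and 10. For genes at least 2-fold apart they were 90 of 136 (66.2%) in NG and 147 of 278 (52.9%) in DRG, with 1 called in the opposite direction on each side.

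The leading receptors and channels kept their direction in those samples. Differences there were 5.22 for Ntsr1, 3.74 for Gpr65, 4.03 for Htr3a and 6.04 for Ltk, and -3.54 for Grik1, -2.69 for Scn1a, -3.47 for Gfra3 and -2.92 for Tac1. Hoxb5 (2.90), Hoxb4 (2.96), Hoxa7 (-2.14) and Hoxd1 (-2.72) were called there too, each in the direction of MG-U74Av2. Hoxa9, which read 32.5, 13.4, 34.5, 30.6 and 29.7 in NG and 61.9, 60.04, 45.01, 39.7 and 39 in DRG and was not called on MG-U74Av2 (adjusted p = 0.0638), was called towards DRG there (-5.56, adjusted p = 1.3e-08).

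Other genes with large differences were not called there, among them Npy2r (-0.19, adjusted p = 0.884), Gabrb1 (-1.94, 0.0897), Ptgfr (-0.28, 0.649), Gja1 (-0.22, 0.611), Itgav (-0.60, 0.0951), Ly6e (-0.09, 0.935), Bmi1 (-0.35, 0.698), Tra2b (-0.49, 0.282) and Klf6 (0.11, 0.809). Of the 16 genes called in opposite directions, the RNA helicase gene Ddx6 had 1.42 on MG-U74Av2, with 2 further probe sets not called (0.80 and 0.41), and -1.66 there. Others were Ndufa3 (-1.37 and 0.75) and Napa (-0.71 and 0.83). The probe sets of the array types lie on different parts of a transcript, and the differences between the array types were not tested.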

How the data were processed

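Neurons captured from NG and DRG were read on 10 MG-U74Av2 arrays. The deposited values are intensities, Affymetrix MAS5 signals (the version is not given), per the submitters' processing notes. The arrays are 1-colour, carry no spread of their own, and their number limits the precision. Each array was scaled to one 2% trimmed mean of its signals. Control probe sets were left out. A probe set was tested where its signal exceeded the 40th percentile of its array on at least 5 arrays, which left 7583 of 12422. Probe sets were named through the platform annotation, 10855 with 1 gene symbol, 396 with several and 1237 with none, and a gene was read by its brightest tested probe set. NG minus DRG was fitted with limma (3.58.1, R 4.3.3; lmFit, eBayes with trend and robust) on log2(signal + 10.4), without a block. The script was tested on simulated data. Python (3.11.15) was used for figures and promoters.

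Gene lists and members were chosen with earlier results of these data known. Genes were named by rule: up to 20 per direction with the largest called difference, no overlap and a signal above the median in the higher group; up to 4 per list and direction; a list of sensory neuron genes and all Hox genes; up to 8 per ganglion with the largest spread; and up to 10 bright genes with a 95% interval within 0.5 of 0. Alternatives covered scaling, pseudocount, filter, eBayes settings, array weights, the Gapdh 3′ over 5′ ratio, all 4 MG-U74Av2 groups in one fit, the replicate block and each array left out. Some listed genes are not reported here.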

Additional observations from a re-analysis of the deposited data

Results flagged for a closer look

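In 24 of 484 pairs of a gene and a group of 5 arrays, the gap between 1 array and its nearest neighbour took a larger part of the group's range than Dixon's 95% critical value allows. Chance flags about 1 in 20 groups, so about this many are to be reckoned with, and the values are given without an explanation.

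Among the NG arrays, array 003 was lowest for Bmi1 (signal 19.7) and H2-D1 (2507) and highest for Syt17 (712). Array 007 was lowest for Fgfr1 (65.8) and Hoxa9 (13.4) and highest for Sema6c (99.0). Array 008 was highest for Abcc3 (266) and lowest for Atp6v0a2 (160.5) and Plxna2 (7.74). Array 010 was highest for Frzb (25.2) and Psma4 (788), and array 014 for Jun (186).

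Among the DRG arrays, array 003 was highest for Gnas (10880) and Rpl37a (513) and lowest for Sqor (3.32). Array 006 was highest for Aqp1 (852) and lowest for Fbn2 (4.54). Array 008 was lowest for Cacna2d3 (98.2), Cpne6 (941.6) and Ndufv1 (1822) and highest for Fabp7 (2542) and Lypla1 (1718). Array 010 was lowest for Gal (301.2), and array 014 was highest for Cdh5 (99.5).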

How the results depend on the processing

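Of 242 tested named genes, 211 were called, and none of these changed direction under any of 23 alternatives. Of the 31 not called, 10 changed sign (Cbfb, Fancc, Gnas, Impact, Prcc, Scn10a, Snap25, Sncg, Tuba1a and Zwint). Of the called genes, 153 were called under every alternative, and 30 lost the call when a single array was left out. The count of probe sets called higher in NG (792) was 386 with the deposited signals left unscaled, 514 with the Gapdh ratio as a covariate and 467 with the replicate block. The cause was not tested. The count called higher in DRG stayed within 1.5 times of 860 in all 23. Leaving out both NG arrays 010 and 014 was chosen after seeing the data.

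Sample numbers occur in both ganglia, so a fit with the number as a block was run on the 4 shared numbers. It called 1059 probe sets, 994 of them among the 1652. Deviations of same-numbered arrays correlated at -0.106 to 0.111, and those of different numbers at -0.16 to 0.176. No pairing by number was seen, but 4 pairs are too few to exclude one. Calls lost under the block cannot be read as weaker effects.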

Other observations

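In captured neurons, subunits of the proteasome were called in both directions. Psma3 (-0.67, SE 0.11) and Psmd12 (-0.66, SE 0.13) were among those called, while a probe set of Psmd11 was called towards DRG (-1.53, SE 0.36) and its other probe sets were not called (0.19 and 0.24). Complement gene C1qc, a macrophage marker, was higher in NG (1.34, SE 0.35), and Ly86, of the same list, was higher in DRG (-1.97, SE 0.25). The muscle gene Myl1 read 213 ± 62.04 in NG and 48.3 ± 19.9 in DRG (1.95, SE 0.24). The fatty acid carrier Fabp5 was higher in DRG (-0.9964, SE 0.24) but lost that call once the Gapdh ratio entered the fit. The glial carrier Fabp7 was also higher in DRG (-0.68, SE 0.21), which lost its call with an array left out (adjusted p 0.0562 to 0.0825 without any 1 of NG 003, 007 or 008 or DRG 008 or 010). The matrix gene Fbn2, fibrillin 2, was higher in NG (1.36, SE 0.36) but lost its call in that same fit. The basement membrane collagen Col4a1 was also higher in NG (0.42, SE 0.14), which lost its call with an array left out (adjusted p 0.0773 to 0.105 without any 1 of NG 010, 003 or 007 or DRG 003, 014 or 006). The receptor kinase gene Kdr of vessels read 312 ± 94.7 in NG and 91.5 ± 21.4 in DRG (1.64, SE 0.22), higher in NG, and Eng, of the same list, 176 ± 81.1 in NG and 332 ± 89.2 in DRG (-0.98, SE 0.32), a call that was lost with an array left out (adjusted p 0.0564 to 0.0914 without any 1 of NG 010 or 003 or DRG 003, 008, 010 or 006).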
